A study of Mus musculus with 8 samples.

Results

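Zbtb16, Lpin1, Fkbp5, Arrdc3 and Tsc22d1 are 5 genes that respond to glucocorticoids or to fasting, and they were examined here among the 7500 genes for which ribosome footprints of mouse liver were tabulated. They were chosen by symbol, with the authors' own comparison of the diets already known. The fold changes and p-values of that comparison were neither used nor repeated here. Footprints are the stretches of mRNA that a translating ribosome shields from nuclease, so a footprint level reports ribosomes on a coding sequence rather than mRNA alone. Livers came from male FVB/N mice that received one of the diets for 6 weeks from weaning. The diet named 0 Se was selenium-deficient and had no selenium added (0 ppm), and the diet named 0.1 Se was the same diet with 0.1 ppm selenium as sodium selenite. Each diet was represented by 2 mice and 4 libraries, 2 libraries per mouse.

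The measurement available for each gene was 1 average level over all 8 libraries of both diets, in log2 CPM, where CPM stands for counts scaled to the total of the library. No value of a single mouse or of a single diet was analysed here. The levels below therefore describe the liver of both diets together and carry no SD, and no difference between 0 Se and 0.1 Se was tested. The depth of each library is unknown. Where levels of different genes are compared, they are given per kilobase of counted coding sequence, because a longer coding sequence collects more footprints at the same ribosome density.

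Glucocorticoids are adrenal steroid hormones that rise in fasting and stress. They bind the glucocorticoid receptor, which is held ready by the chaperone Hsp90, and the receptor then enters the nucleus and activates genes through response elements, inverted repeats of a short word. In liver, glucocorticoids act together with glucagon and low insulin to raise glucose output and to shift lipid handling. Fkbp5 is a co-chaperone that joins receptor-bound Hsp90, lowers the receptor's affinity for hormone and is itself induced by the receptor. Zbtb16, also known as PLZF, is a zinc finger transcriptional repressor, and Lpin1 is a phosphatidate phosphatase that makes diacylglycerol for triglyceride synthesis. Arrdc3 is an alpha-arrestin, an adaptor that brings ubiquitin ligases of the Nedd4 group to membrane receptors. Tsc22d1 belongs to a family of leucine zipper proteins that also includes Tsc22d3, the glucocorticoid-induced leucine zipper.

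The letters that the receptor is known to prefer were sought in the 5 genes, because binding to such elements is how the receptor is known to activate many of its targets. The search used a palindrome made of the hexamer AGAACA, a spacer of any 3 bases and the reverse complement TGTTCT, which reads the same on both strands. Fkbp5 held the palindrome 2 times within its gene (mm9), and the other 4 genes held it 0 times, also when 10 kb on either side was added. Among 22367 protein-coding genes, 1.21% held it within the gene and 9 genes held it at least 2 times. Long genes have more room for a match. Of 2012 genes whose span was within a factor of 1.5 of that of Fkbp5, 3.68% held the palindrome and 1 held it at least 2 times, Fkbp5 being that gene. The sites of Fkbp5 are shown on the strand of the gene, with the matching letters of the hexamers in capitals and 5 bases of flank on either side.
Fkbp5 intron 1, chr17:28579359-28579383: gtttgAGAACAgctTGTTCTaggct
Fkbp5 intron 5, chr17:28557261-28557285: cattcAGAACAgggTGTTCTgtgct

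The first lay 75.1 kb and the second 97.2 kb from the 5′ end of the gene. Exons and introns are numbered on an annotated transcript that fits the counted coding length. For Fkbp5 this transcript starts 31375 bases inside the gene, so the distances are not from its first exon. With 1 mismatch allowed outside the spacer, further sites were found in Fkbp5, Zbtb16, Arrdc3 and Tsc22d1, and Lpin1 still had 0. They are shown in the same way, so that the lower-case letter inside a hexamer is the mismatch.
Fkbp5 exon 6, chr17:28552824-28552848: agagaAGAACAgtgTaTTCTatatc
Zbtb16 intron 2, chr9:48583924-48583948: tctagAGAACAttcTGTcCTctgca
Zbtb16 intron 4, chr9:48494043-48494067: gtcacAGAAtAcatTGTTCTctggg
Arrdc3 intron 6, chr13:81030704-81030728: gcataAGAACAtgtTGTTCgaattg
Tsc22d1 intron 1, chr14:76877977-76878001: agatgtGAACAgttTGTTCTccata

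At this looser setting 19.4% of all protein-coding genes held a match, so 1 match in a gene is common. Fkbp5 had 3 matches in all, exact ones included. Of genes of like span, 94.7% had fewer and 1.09% had more. Arrdc3 had 1 match in a short gene, where 91.8% of genes of like span had fewer and 0.300% had more. The mean there was 0.0856 matches per gene. Zbtb16 had 2 matches, where 65.4% of genes of like span had fewer and 11.9% had more. Tsc22d1 had 1, where 50.8% had fewer and 15.3% had more. The remaining genes of like span had as many matches as the member. Lpin1 had 0, against a mean of 0.412 in genes of like span. Of those genes, 33.9% had more and the rest, the majority, also had 0. These are matches of letters, and receptor binding was not measured.

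**Figure D1:**
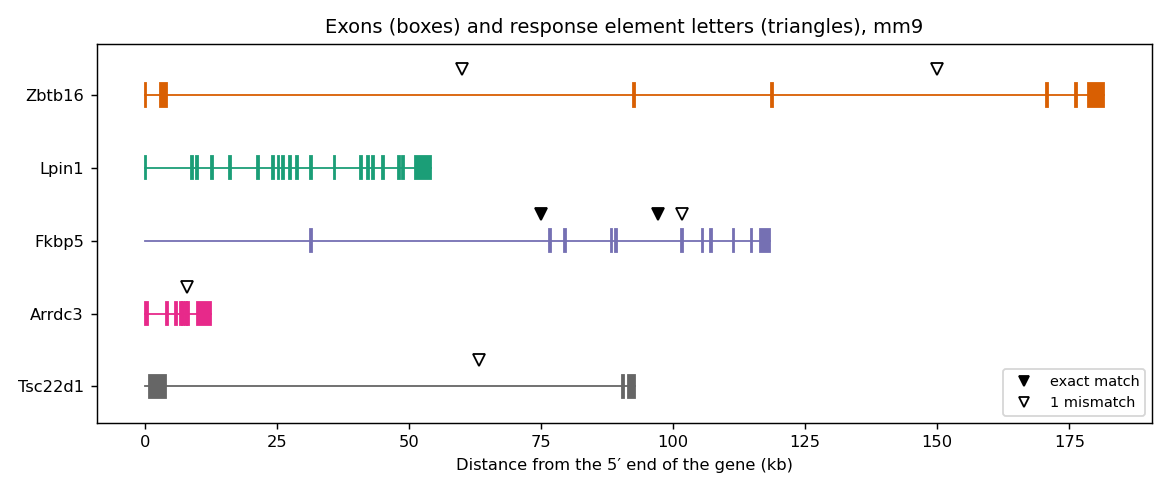
Exons (boxes, the shortest drawn wider than scale to be visible) and response element letters (triangles) along each of the 5 genes, against the distance in kb from the 5′ end of the gene. Filled triangles mark exact palindromes, which appear only in Fkbp5 among these 5 genes, and open triangles mark matches with 1 mismatch.

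The 300 bases around the start sites listed by RefSeq, 250 before and 50 after, were searched as well (build GRCm38.p6). They covered 4 of the 5 genes in 10 windows. Zbtb16 had no window. The palindrome was in 0 of the 10 windows, exactly or with 1 mismatch, beside 0.00913% and 0.164% of all 32851 windows. The hexamer alone, on either strand, was in the only window of Lpin1 and in 1 of the 5 windows of Tsc22d1, beside 18.97% of all windows, which makes it a frequent word. It is shown here in capitals, on the strand of the gene.
Lpin1 promoter, chr12:16611119-16611134: accagTGTTCTgtgag
Tsc22d1 promoter, chr14:76504084-76504099: tgcacAGAACAcagcc

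The FoxO letters GTAAACA and the cAMP response element letters TGACGTCA, which serve the fasting signals of low insulin and glucagon, were in 0 of the 10 windows on either strand, beside 3.65% and 1.79% of all windows.

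Lpin1 had the highest footprint level of the 5 genes. Its level was 8.53 log2 CPM, or 368.8 CPM, which placed it 293rd of 7500 genes. Per kilobase it reached 7.14 log2 CPM, above 90.4% of genes. Lpin1 alone held 69.9% of the footprints of the 5 genes together, and all 5 summed to 527.4 CPM.

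Arrdc3 came next, with a level of 6.40 log2 CPM and 6.16 log2 CPM per kilobase, above 83.7% of genes by the second measure. The per-kilobase level of Lpin1 was 1.98-fold that of Arrdc3. Fkbp5 had a level of 4.83 log2 CPM and 4.43 log2 CPM per kilobase, above 65.1% of genes per kilobase, and lay 3.30-fold below Arrdc3 per kilobase.

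Zbtb16 and Tsc22d1 were the lowest of the 5 genes per kilobase. Zbtb16 stood at 4.22 log2 CPM, or 18.6 CPM, and at 3.25 log2 CPM per kilobase, and Tsc22d1 stood at 4.76 log2 CPM, or 27.2 CPM, and at 3.10 log2 CPM per kilobase. Per kilobase both were under the median of all genes, 3.50 log2 CPM, with 45.9% of genes below Zbtb16 and 43.5% below Tsc22d1. Their order depended on the measure. Tsc22d1 was the higher of the pair by total footprints and the lower per kilobase, since its counted coding sequence was 3174 bases long and that of Zbtb16 1962. Per kilobase they differed by 1.11-fold, and whether this or any other step in the order exceeds the spread between mice could not be judged without values per mouse. The median of the 5 genes was 4.43 log2 CPM per kilobase, beside 3.50 over all genes. From Lpin1 to Tsc22d1 the range was 16.5-fold.

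**Figure D2:**
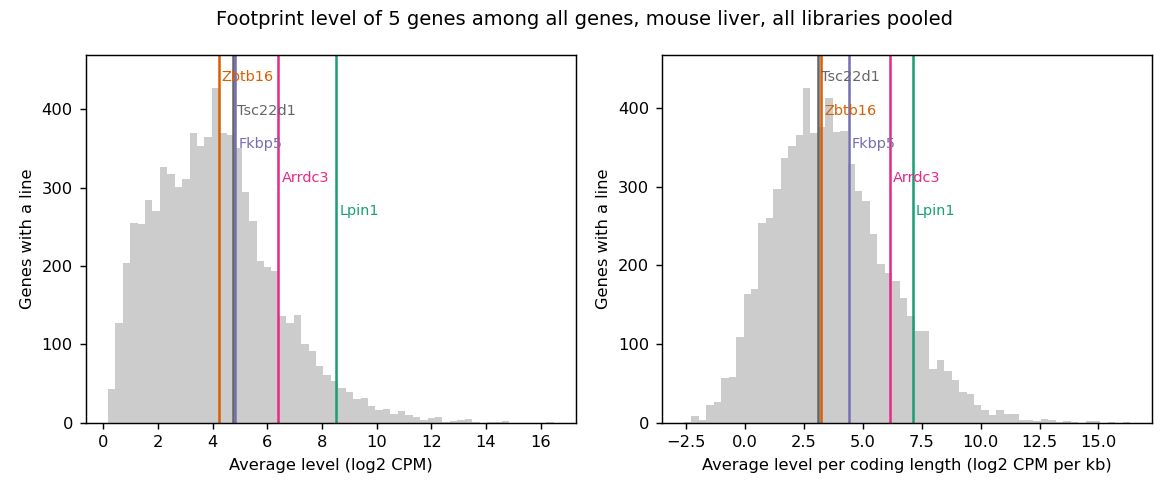
Histograms of the average footprint level of all 7500 genes, in log2 CPM (left) and in log2 CPM per kb of counted coding sequence (right), with vertical lines at the 5 genes. Lpin1 and Arrdc3 lie in the upper tail of both, and Zbtb16 and Tsc22d1 lie near the middle per kb.

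The genes nearest to each member in per-kilobase level were Rnf4 and Ttpa for Lpin1, Erp29 and Glod4 for Arrdc3, Pla2g7 and Mospd2 for Fkbp5, Mettl21a and Cdk17 for Zbtb16, and Zrsr1 and Tmem47 for Tsc22d1. They were nearest by the average level alone. Each was within 0.0026 of its member on the log2 scale. A likeness of pattern across mice was not analysed here.

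What each level counted was checked against the mm9 annotation. The gene positions that follow are in mm9 and cannot be set beside the GRCm38.p6 promoter positions above. Fkbp5 (chromosome 17, 28536040 to 28654469, minus strand) spans 118430 bases, and Zbtb16 (chromosome 9, 48462416 to 48644050, minus strand) spans 181635. Lpin1 (chromosome 12, 16542475 to 16596576, minus strand), Arrdc3 (chromosome 13, 81022645 to 81035296, plus strand) and Tsc22d1 (chromosome 14, 76814768 to 76907569, plus strand) span 54102, 12652 and 92802 bases. The listed length of every one of them was 60 bases shorter than a complete annotated coding sequence, from start to stop codon. That sequence had 673 codons before the stop for Zbtb16, 891 for Lpin1, 456 for Fkbp5, 414 for Arrdc3 and 1077 for Tsc22d1. None of the 5 contained an in-frame UGA before its stop codon (0 in each), so none encodes selenocysteine in that sequence.

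The counted sequences of the 5 genes shared almost no exact windows with other protein-coding genes. For Zbtb16, Lpin1, Fkbp5 and Arrdc3, 0% of the 30-base windows of the counted sequence occurred exactly in a transcript of another protein-coding gene. For Tsc22d1 the share was 0.0954%. The authors' alignment allowed 2 mismatches, and windows that nearly match another gene were not sought. Whether the footprints were assignable to these genes alone was therefore not tested. Isoforms of the same gene were a different matter for Tsc22d1, which has 7 annotated coding transcripts with coding sequences of 324 to 3234 bases. The level was counted on the longest. The 3 short isoforms, with coding sequences of 324, 333 and 432 bases, hold only 8.52%, 8.49% and 8.52% of the windows of the counted sequence, while 90.8%, 87.8% and 66.5% of their own windows lie in it. Any footprints of these isoforms in the shared windows cannot be told apart from those of the long isoform, and whether the short isoforms were translated in these livers was not measured. The per-kilobase level of Tsc22d1 divides all counted footprints by the long length. For Lpin1 the counted sequence of 891 codons shares 98.96% of its windows with the longer coding sequence of 2775 bases.

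The lipins convert phosphatidate to diacylglycerol, and all 3 had a line. Per kilobase, Lpin1 was 2.94-fold above Lpin2 (5.58 log2 CPM) and 140.0-fold above Lpin3 (0.01 log2 CPM). Before division by length Lpin3 stood at only 1.32 log2 CPM, near the low end of all genes, so the second ratio is rough. Of the other enzymes of triglyceride synthesis and breakdown, Gpam, which starts glycerolipid synthesis, stood at 6.60 and Dgat1, which adds the last acyl chain, at 3.52 log2 CPM per kilobase. Agpat2, Dgat2 and Pnpla2 had no line. Lpin1 was above each of the 4 other listed genes with a line.

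Among the FK506-binding proteins, 9 of 15 had a line. Fkbp5 was in the middle of them, with 4 above and 4 below it per kilobase. Fkbp4, the co-chaperone that competes with Fkbp5 for receptor-bound Hsp90 and favours movement of the receptor into the nucleus, was the highest at 7.36 log2 CPM per kilobase, 7.61-fold above Fkbp5. The lowest were Fkbp10 at -0.02 and Fkbp7 at 1.47 log2 CPM per kilobase.

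Among the alpha-arrestins, Arrdc3 was far above its nearest named relatives. Per kilobase it was 18.2-fold above Arrdc4 and 20.2-fold above Arrdc2, and it was 1.30-fold below Txnip, the thioredoxin-binding alpha-arrestin, which stood at 6.54 log2 CPM. Before division by length Arrdc4 and Arrdc2 stood at only 2.22 and 2.04 log2 CPM, under the median of all genes, 3.95. The ratios to these 2 genes are therefore rough. Arrdc1 and Arrdc5 had no line. Of the ubiquitin ligases and the receptor listed as partners of alpha-arrestins, Nedd4 stood at 7.43 and Nedd4l at 4.13 log2 CPM per kilobase, and the other 4 had no line.

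In the TSC22 family the order was wide. Tsc22d3 stood at 7.54 log2 CPM per kilobase, 21.7-fold above Tsc22d1, and Tsc22d4 stood at 0.05, 8.30-fold below Tsc22d1. Before division by length Tsc22d4 stood at only 0.60 log2 CPM, so its ratio is rough. Tsc22d2 had no line. Among the BTB zinc finger genes, 19 of 38 had a line, and Zbtb16 was exceeded per kilobase by 4 of the other 18, namely Zbtb20 (4.52 log2 CPM), Bcl6 (4.44), Zbtb7b (3.70) and Zbtb33 (3.35). The median of the other 18 was 1.78 log2 CPM per kilobase.

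**Figure D3:**
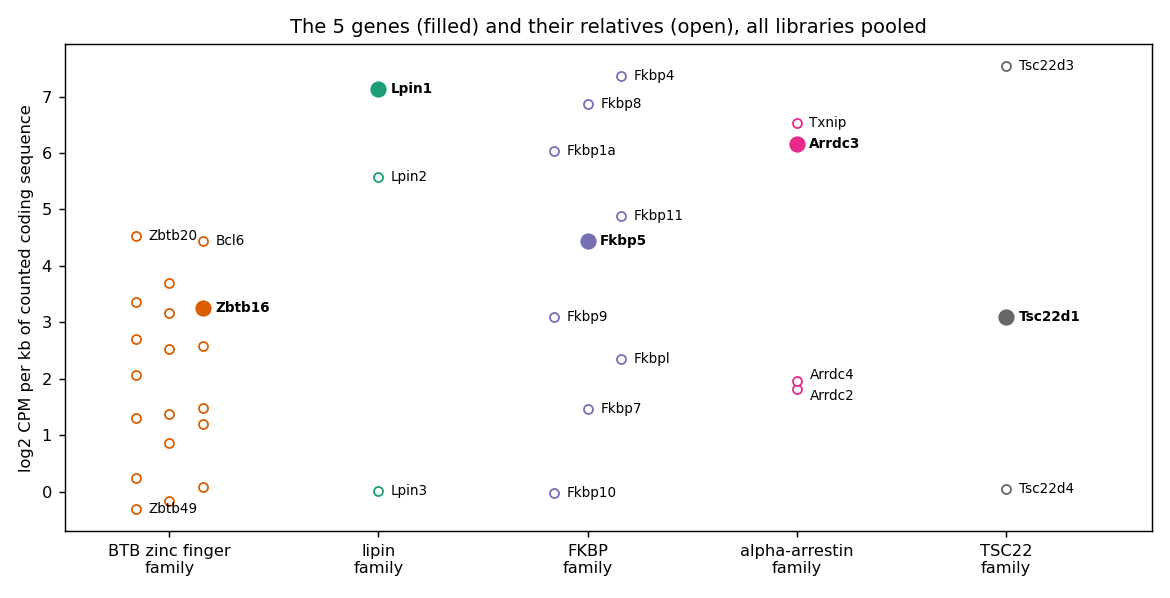
Average footprint level in log2 CPM per kb of counted coding sequence for each of the 5 genes (filled points) and the relatives that had a line (open points), by family. Lpin1 is the highest lipin, Arrdc3 is 1.30-fold below Txnip, and Fkbp5 and Tsc22d1 lie below Fkbp4 and Tsc22d3.

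The machinery around the receptor was present at higher levels than most of the 5 genes. Nr3c1, the glucocorticoid receptor itself, stood at 4.26 log2 CPM per kilobase, close to Fkbp5 at 4.43. The chaperones Hspa8, Hsp90ab1 and Hsp90aa1 stood at 10.93, 9.61 and 8.79, and the co-chaperones Ptges3 and Stip1 at 8.01 and 7.10. Hsd11b1, which regenerates active glucocorticoid inside the cell, stood at 9.76 and Serpina6, the corticosteroid-binding globulin of blood, at 9.01 log2 CPM per kilobase. The lowest was Ncoa1, a coactivator of nuclear receptors, at 2.02. Of 17 genes in this list, 14 had a line, with a median of 7.69, and 8 of them were above Lpin1.

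Other genes that glucocorticoids induce in liver were listed for 14 of 19. Their median was 5.77 log2 CPM per kilobase. The highest were Pck1 at 11.04 and Tat at 10.84, enzymes of glucose production and tyrosine breakdown. The lowest were Ddit4, an inhibitor of mTOR signalling, and Cebpd, a transcription factor, neither of them above 2.50. Of these 14 genes, 5 were above Lpin1, 10 were above Fkbp5 and 11 were above Tsc22d1. Dusp1, a phosphatase of MAP kinases, stood at 3.13, close to Zbtb16 and Tsc22d1. In the annotation, 2 of the 18 of these genes that are annotated under the same symbol, Sgk1 and Angptl4, held the exact palindrome within the gene, beside 1.21% of all protein-coding genes. The genes of this list were not matched for span, and 2 genes are too few to read as an excess. The palindrome was not limited to this list. Angptl4 also belongs to the fasting list below, where it was the only match among 18 genes, and the palindrome was in 1 of 5 other alpha-arrestins (Arrdc4) and in 1 of 35 other BTB zinc finger genes (Zbtb20).

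Of 18 genes of the fasting response, 12 had a line, with a median of 4.69 log2 CPM per kilobase. Cpt1a, which admits fatty acids to mitochondria, was the highest at 7.44, and Crtc2, a coactivator of CREB, was the lowest at 1.59. Lpin1 at 7.14 was close to Ppara, the fatty acid-sensing nuclear receptor, at 7.11, and of these 12 genes 1, Cpt1a, was above it. The transcription factors Foxo1 and Foxo3 stood at 3.88 and 4.28, between Zbtb16 and Fkbp5.

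**Figure D4:**
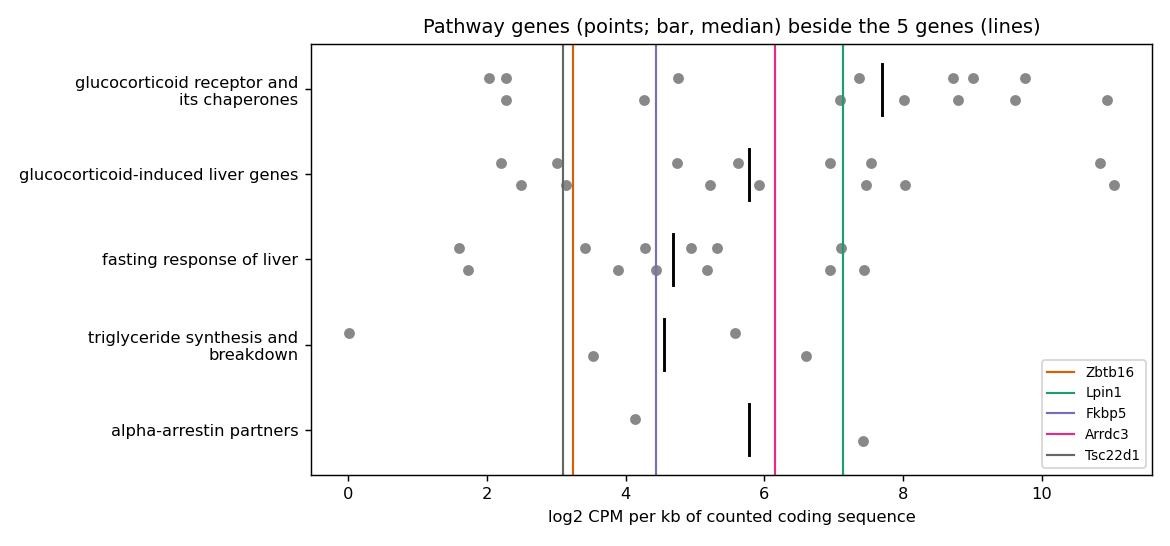
Average footprint level in log2 CPM per kb of counted coding sequence for listed pathway genes (points, with a bar at the median of each list) beside the 5 genes (vertical lines). The medians run from 4.55 for the triglyceride list without Lpin1 to 7.69 for the receptor and its chaperones.

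The labelled tissue was checked by its defining genes. Of the hepatocyte markers 7 of 8 had a line, from Serpina1a at 7.60 to albumin (Alb) at 15.66 log2 CPM per kilobase. Markers of macrophages (6 of 7, from Marco at 2.30 to Clec4f at 7.42), endothelium (5 of 5, from Lyve1 at 2.27 to Cdh5 at 4.82) and stellate cells (5 of 5, from Des at 1.34 to Dcn at 7.70) were also present, lymphocytes were represented by Ptprc alone (1 of 5), and red blood cell markers by 0 of 3. The per-kilobase levels of all 5 genes were below the hepatocyte markers and within the range of these other cell types' markers. That range holds most genes, since 16.5% of all genes were below Des and 93.2% were below Dcn. Lying within it therefore says little about the 5 genes. In whole liver, fewer cells of a type and less RNA per cell cannot be told apart, and which cells translated the 5 genes was not tested. The absence of a line does not show absence of translation, since Gapdh and Eef1a1, active in every cell, had none. All lines together summed to 857014 CPM, which is 85.7% of the total that CPM is scaled to.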

How the data were processed

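Ribosome footprints of 8 liver libraries from 4 mice were sequenced on an Illumina HiSeq instrument. According to the methods, the authors removed adapters and ribosomal RNA reads, aligned the rest uniquely with Bowtie, allowing 2 mismatches, to the longest RefSeq isoform of each gene (mm9), left out the first 15 and last 3 codons, and kept a gene if it exceeded 1 CPM in 3 or more samples. Abundance was deposited as log2 CPM, which the authors averaged across every library in edgeR, whose prior count compresses low values; tool versions were not given in the sources used here. Another 4 deposited columns, which hold the authors' own comparison (log2 and linear fold change, p-value and adjusted p-value), were not used. Counts per library were not analysed here, so the count test planned for the diets was not run, and nothing was tested.

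Levels per kilobase were CPM divided by the listed length. For 97.7% of the 7260 genes found in GENCODE M1, that length was 60 bases shorter than a coding sequence, so the omitted codons, start and stop are already out of it. Groups were taken from sample titles. The 5 members and all lists were chosen with earlier results of these data known. Named genes were the members, their relatives, the 2 nearest genes in level and, from each pathway list, at most the 3 highest, the 3 lowest and those that a sentence on a member needed. Hsp90aa1, Serpina6, Ptges3 and Stip1 were named for their roles after their values were seen, as were the cell type markers. The FoxO and cAMP letters and the matches across whole genes were added later. Promoter windows were those of RefSeq (GRCm38.p6), and gene spans were scanned in mm9. Motif and window searches were tested on simulated sequences. Python 3.11.15, numpy 2.4.6 and pandas 2.3.3 were used. By the titles, repeat libraries come from the same mouse and are not independent animals. How the repeats were made was not stated there. One further gene of the fasting response is outside the 18 listed and is not reported here.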

Additional observations from a re-analysis of the deposited data

How the results depend on the processing

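The order of the 5 genes per kilobase was the same under each length tried. Both alternatives changed a length by 60 bases or fewer, too little to reorder these genes, so the order was not put to a real test. The lengths of the short Tsc22d1 isoforms were not tried. With the first 15 and last 3 codons taken off the listed length, which already lacks them, the levels in log2 CPM per kilobase became 3.29 for Zbtb16, 7.17 for Lpin1, 4.50 for Fkbp5, 6.22 for Arrdc3 and 3.12 for Tsc22d1. With the full coding length, an alternative chosen after seeing the data, they became 3.20, 7.11, 4.37, 6.08 and 3.07. Placed by log2 CPM, Zbtb16 was above 55.5% of genes, Lpin1 96.1%, Fkbp5 66.5%, Arrdc3 85.6% and Tsc22d1 65.5%. Among genes at 3 log2 CPM or more, these became 33.2%, 94.2%, 49.8%, 78.4% and 48.2%, since the genes taken out were all lower. Per kilobase they became 45.9%, 90.4%, 65.1%, 83.7% and 43.5%, the largest move being that of Tsc22d1. Leaving out 11 symbols that read as dates moved none of them at 3 digits. In the promoter windows, the hexamer alone was found for 2 genes, in place of 0 with the palindrome, exact or with 1 mismatch.

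The lengths of RefSeq proteins were not used here, so that alternative was not run, nor was leaving out each mouse. No paired analysis was possible because mouse numbers are not shared between 0 Se and 0.1 Se and no value per mouse was used. Without values per library, neither depth nor the spread between mice limits these levels in a way that can be stated.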
